A study of Mus musculus with 4 samples.

Results

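Chemokine genes were examined in 4 mouse tongue cancer cell lines. A gene was taken as a member if its symbol in the platform's annotation is Ccl, Cxcl, Cx3cl or Xcl with a number and at most 1 letter after it, which gave 38 of the 19505 named genes on the array. Total RNA of each line had been hybridised to a single Affymetrix Mouse Clariom S array. M1-2 and M2-3 were grown out of separate tongue tumors of C57BL/6 mice that had received the carcinogen 4-NQO together with arecoline, a compound of the areca nut. NHRI-HN1 came from M1-2 and NHRI-HN2 from M2-3, each by way of a culture as floating spheres, and the labels put all 4 lines in attached culture in DMEM with fetal bovine serum. Each line is 1 cell population, no line has a second array, and each sphere-derived line shares its mouse with its parent.

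Chemokines are small secreted proteins that bind G protein-coupled receptors on leukocytes and draw them along a concentration gradient. The pattern of conserved cysteines gives the families CC, CXC, CX3C and XC, and the receptor decides which leukocyte answers: Cxcr2 on neutrophils, Ccr2 on inflammatory monocytes, Cxcr3 on activated T and NK cells, Ccr7 on naive T cells and mature dendritic cells. Tumor epithelium can make several of them, and in carcinomas they are studied as the signals that set which immune cells enter the tissue.

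The deposited values were taken as log2 units. By that reading 1 unit is a 2-fold difference, but the scale was not fully described, so differences are given in units. No detection call came with the values. A background level was therefore set on each array at the 95th percentile of its olfactory receptor genes, which stood at 4.13 in M1-2 and 4.15 in NHRI-HN1, and 4.12 in M2-3 and 3.94 in NHRI-HN2. A value at or under that level gives only a bound, and a difference against it is given as at least the distance to that level. Of the 38 members, 18 lay above it in M1-2 (56.6% of all genes did), 15 in NHRI-HN1 (56.9%), 18 in NHRI-HN2 (57.4%) and 10 in M2-3 (55%). In at least 1 line 23 members did, or 60.5% against 64.7% of all genes, and 8 did in all 4 lines: Ccl2, Ccl7, Ccl25, Ccl27a, Ccl28, Cxcl3, Cxcl16 and Cx3cl1. Of the 9 measured leukocyte markers, Ptprc (the pan-leukocyte antigen CD45) among them, none exceeded the background level on any array, with values between 2.04 and 4.00.

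Among the members, 9 spanned 4 units or more over the lines, 23.7% of them against 7.1% of all genes. The median range was 1.16 units for the members and 1.05 for all genes. Of all 38 members, 16 had their highest value in NHRI-HN1, 14 in NHRI-HN2, 7 in M1-2 and 1 in M2-3. Among the 23 above background somewhere, 11 were highest in NHRI-HN2, 7 in NHRI-HN1, 4 in M1-2 and 1 in M2-3. A member can enter the 23 through its highest line alone, so the latter counts do not set a line apart. The same counts over all genes were not made.

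**Figure D1:**
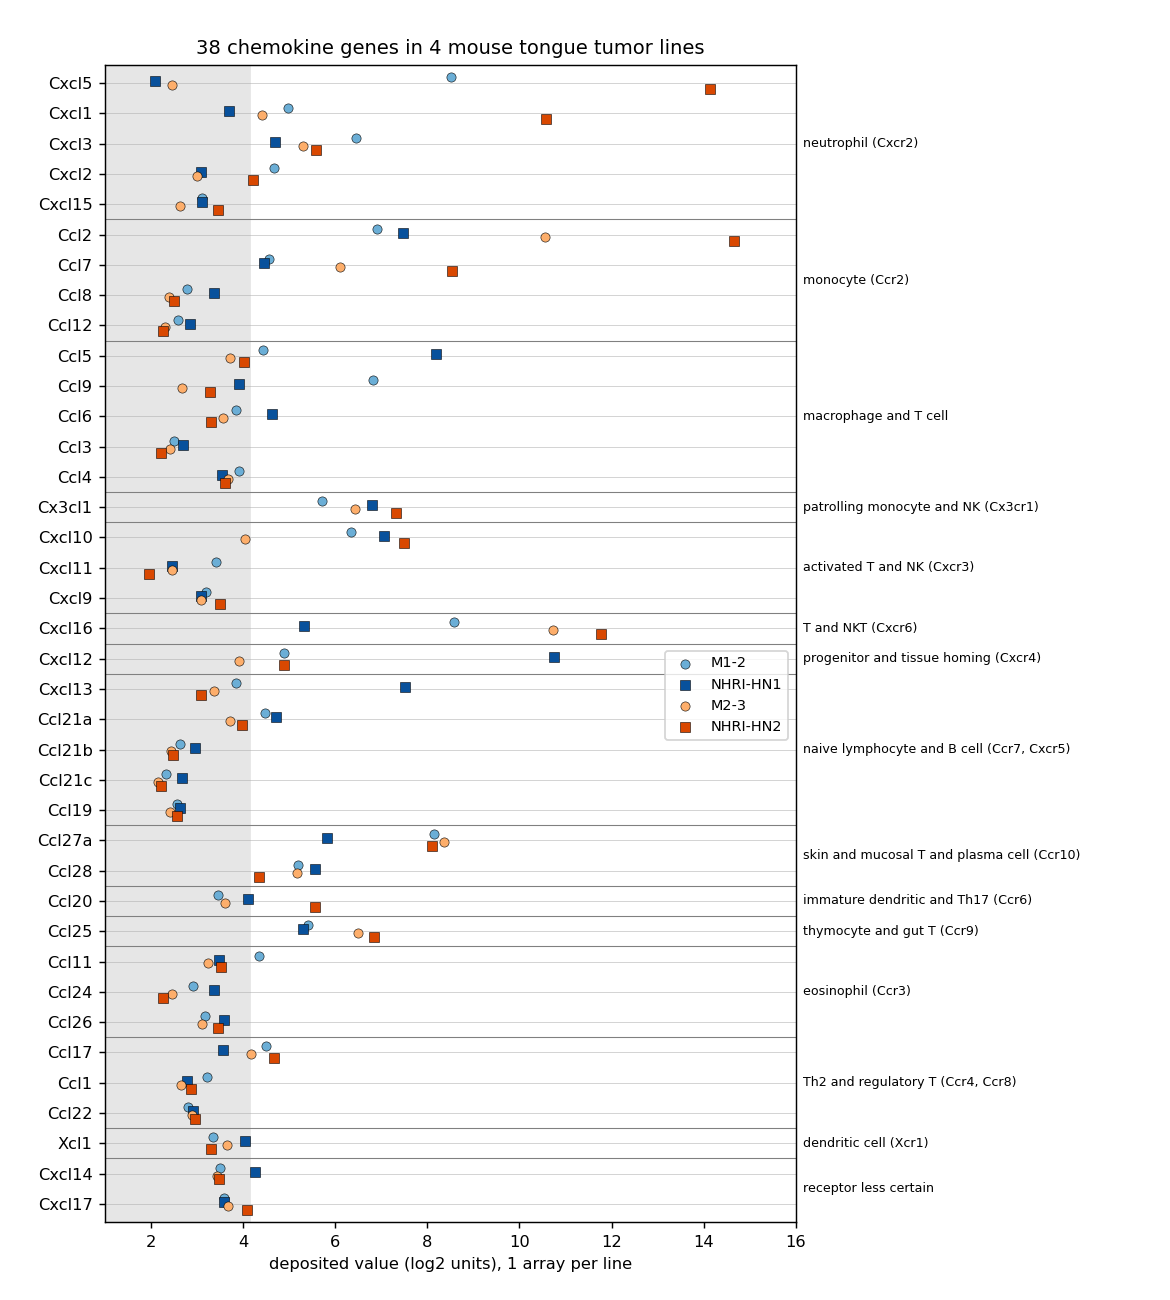
Deposited value in log2 units (x axis) of each of the 38 chemokine genes (rows, grouped by the cells they attract, most with a receptor named), with 1 point for each of the 4 lines and no error bars because each line has 1 array. The grey band ends at 4.15, the highest of the 4 background levels; Cxcl5 and Ccl2 in NHRI-HN2, at 14.13 and 14.67, lie farthest to the right.

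Among the ligands of the neutrophil receptor Cxcr2, Cxcl5 and Cxcl1 differed widely between the lines, and Cxcl2, Cxcl3 and Cxcl15 spanned 1.77 units or less. Cxcl5, a neutrophil attractant made mainly by epithelial cells, was at 8.52 in M1-2 and 2.08 in NHRI-HN1, and 2.44 in M2-3 and 14.13 in NHRI-HN2. It was thus above background in 1 line of each tumor, in the parent M1-2 and in the sphere-derived NHRI-HN2. NHRI-HN2 exceeded its parent by 11.69 units as measured, the largest such difference among all 19505 genes, and by at least 10.01 units once M2-3 is set to its background level. In the other tumor the order was turned round: the difference of NHRI-HN1 from M1-2 was -6.44 units as measured and -4.37 units with NHRI-HN1 set to its background level, so at least that far down.

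Cxcl1, the mouse gene first known as KC and a main neutrophil attractant in this species, was at 4.98 in M1-2 and 3.68 in NHRI-HN1, and 4.41 in M2-3 and 10.57 in NHRI-HN2. NHRI-HN2 stood 5 or more units above each other line, and its difference from M2-3, 6.16 units, ranked 24th of all genes. Cxcl2, or MIP-2, was close to background throughout, at 4.67, 3.07, 3.00 and 4.21 in the same order of lines.

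Cxcl3, a close relative of Cxcl1 and Cxcl2, was at 6.45 in M1-2 and 4.68 in NHRI-HN1, and 5.30 in M2-3 and 5.57 in NHRI-HN2. It was highest in M1-2, and NHRI-HN2 differed from M2-3 by only 0.27 units. Cxcl15, or lungkine, known from lung epithelium, stayed at 3.44 or lower in all 4 lines.

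Ppbp, a further neutrophil attractant whose symbol falls outside the naming rule and whose gene lies beside Cxcl5, was at 5.61 in M1-2 and 2.67 in NHRI-HN1, and 2.40 in M2-3 and 9.08 in NHRI-HN2. Its order over the lines was close to that of Cxcl5: NHRI-HN1 minus M1-2 was -2.94 units as measured and -1.46 with NHRI-HN1 set to its background level, and NHRI-HN2 minus M2-3 was 6.68 units as measured and at least 4.96 with M2-3 set to its own. Pf4, the platelet chemokine encoded on its other side, lay between 3.20 and 3.50 in all lines.

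These genes stand together on mouse chromosome 5, in the order Cxcl5, Ppbp, Pf4, Cxcl3, Cxcl15, Cxcl1 and Cxcl2 among the measured genes of the GRCm38.p6 assembly. High values in NHRI-HN2 did not follow that order. Cxcl5, Ppbp and Cxcl1 were high there, while Pf4, Cxcl3 and Cxcl15, which lie between Ppbp and Cxcl1, each differed from M2-3 by less than 1 unit. Flanking genes, named after their values were seen, also differed between M2-3 and NHRI-HN2: the epidermal growth factor family ligands Epgn (3.93 and 6.93), Ereg (3.61 and 6.35) and Btc (5.00 and 6.86), and on the other side Rassf6 (6.84 and 8.55), were each more than 1 unit higher in NHRI-HN2. Mthfd2l, a folate enzyme gene next to Cxcl2, was 0.87 units higher. Of all genes, 6.52% were at least 1 unit higher in NHRI-HN2 than in M2-3. In the other tumor, NHRI-HN1 minus M1-2 was -2.31 units for Ereg, 1.22 for Btc and 0.36 for Mthfd2l. Epgn and Rassf6 were under background in both of those lines.

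**Figure D2:**
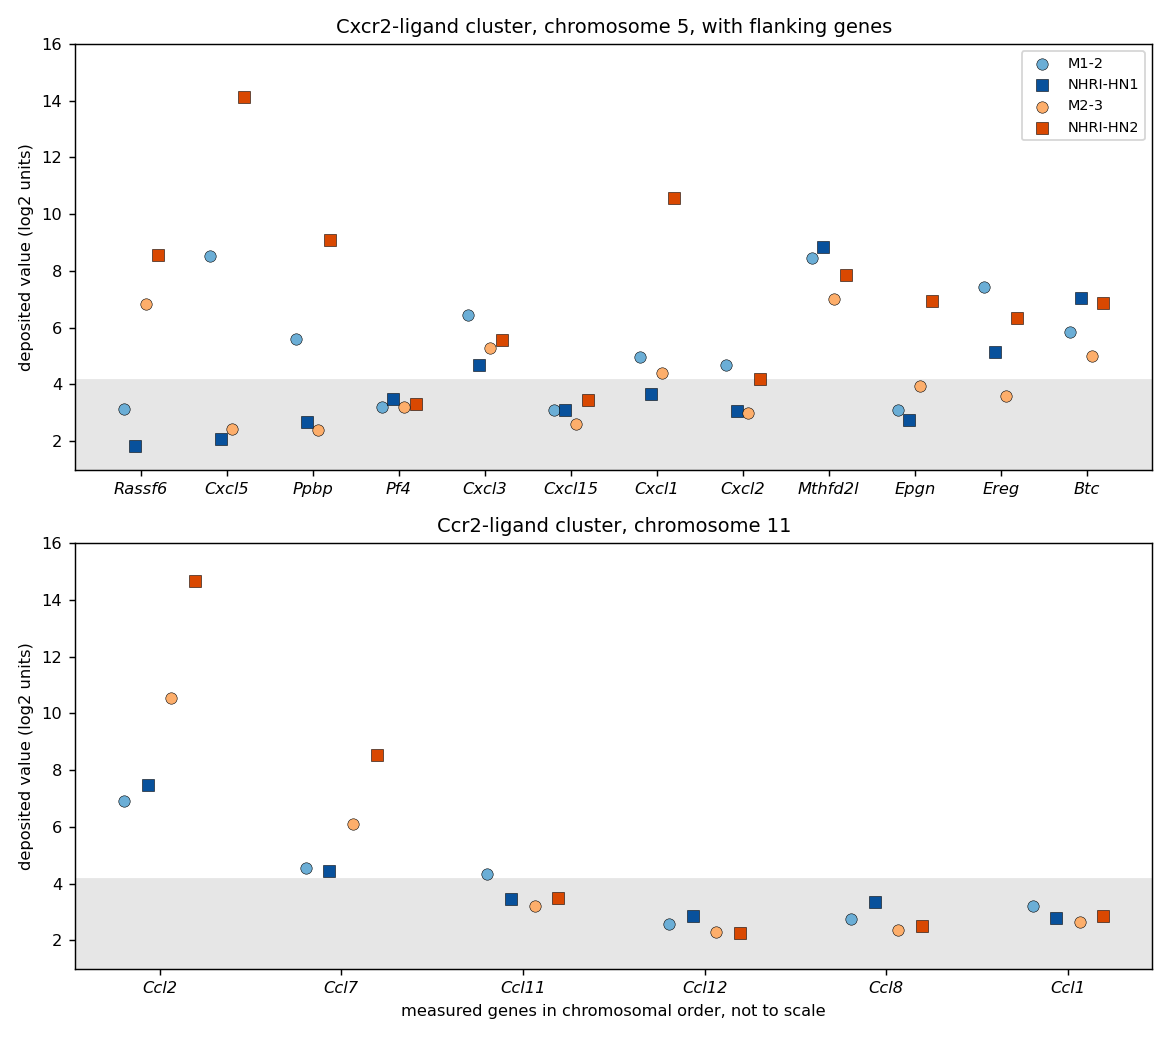
Deposited value in log2 units (y axis) of the measured genes of the Cxcr2-ligand cluster on chromosome 5 with its flanking genes (top) and of the Ccr2-ligand cluster on chromosome 11 (bottom), in chromosomal order and not to scale, with 1 point for each line. In NHRI-HN2 the genes Cxcl5 (14.13), Ppbp (9.08) and Cxcl1 (10.57) stand far above M2-3, while Pf4, Cxcl3 and Cxcl15 between them do not, and the grey band ends at the highest background level, 4.15.

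The bases before the start of these genes are shown because Cxcl1, Cxcl2 and Cxcl3 share a binding motif of the transcription factor NF-kappaB and yet had unlike levels over the lines. Sequences are from the RefSeq promoter table, GRCm38.p6, plus strand, the 120 bases that end just before the start. Capitals mark matches on either strand to the kappaB motif, here GGG, any 3 bases and TTCC, and neighbouring matches on opposite strands overlap.
Cxcl1, chr5:90891125-90891244: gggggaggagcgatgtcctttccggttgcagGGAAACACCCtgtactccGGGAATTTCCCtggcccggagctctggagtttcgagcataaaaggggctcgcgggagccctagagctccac
Cxcl2, chr5:90903779-90903898: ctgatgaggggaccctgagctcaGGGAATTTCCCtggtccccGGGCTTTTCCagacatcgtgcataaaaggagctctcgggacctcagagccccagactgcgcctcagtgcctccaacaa
Cxcl3, chr5:90785981-90786100: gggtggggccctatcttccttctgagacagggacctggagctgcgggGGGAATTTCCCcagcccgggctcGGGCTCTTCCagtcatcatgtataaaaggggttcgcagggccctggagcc
Cxcl15, chr5:90794414-90794533: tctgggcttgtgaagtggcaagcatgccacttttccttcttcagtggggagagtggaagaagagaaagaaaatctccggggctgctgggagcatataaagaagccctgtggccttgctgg

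Cxcl1, Cxcl2 and Cxcl3 held the same 10 bases, GGGAATTTCC, beginning 71, 97 and 73 bases before the start, and each held a further match, 89, 78 and 50 bases before it. Cxcl15 held none in this window. Over windows of 250 bases before to 50 after the start, 7 of the 26 members in the promoter table held a kappaB match, 26.9% against 6.31% of all 27025 genes there: Cxcl1, Cxcl2, Cxcl3, Cxcl10, Ccl20, Ccl9 and Ccl1. Of these 7, Cxcl1, Cxcl2, Cxcl10 and Ccl20 were at least 1 unit higher in NHRI-HN2 than in M2-3, as were 6.52% of all genes. For Cxcl2 the difference is only at least 0.09 units with M2-3 set to its background level. Cxcl3 and Ccl9 differed less, and Ccl1 was not above background in any line. A match describes letters in a window and does not show binding. Another 12 members had no entry in that table. Among them were Cxcl5, Ccl2, Ccl7 and Cxcl16, which were also at least 1 unit higher in NHRI-HN2 than in M2-3. Whether the motif has a part in these differences was not tested.

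Of the 4 ligands of the monocyte receptor Ccr2, Ccl2 and Ccl7 were above background in all lines and highest in NHRI-HN2. Ccl2, the main attractant of inflammatory monocytes (MCP-1), was at 6.91 in M1-2 and 7.47 in NHRI-HN1, and 10.55 in M2-3 and 14.67 in NHRI-HN2. Both M2-derived lines lay more than 3 units above both M1-derived lines, and NHRI-HN2 was 4.12 units above M2-3, rank 77 of all genes. Ccl7, or MCP-3, encoded next to Ccl2 on chromosome 11, had the values 4.55, 4.44, 6.11 and 8.53 in the same order.

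Ccl7 repeated the order of the lines seen for Ccl2 except that M1-2 and NHRI-HN1 differed by only -0.11 units (NHRI-HN1 minus M1-2), and NHRI-HN2 was 2.42 units above M2-3. The next genes of that cluster did not show it: Ccl12 (MCP-5) and Ccl8 (MCP-2), which share the receptor, were at or under 3.36 in all lines. Ccl11, the eosinophil attractant eotaxin, was at 4.34 in M1-2 and 3.46 in NHRI-HN1, and 3.23 in M2-3 and 3.51 in NHRI-HN2, above background only in M1-2, and Ccl1 was at or under 3.21 throughout.

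The steps from parent to sphere-derived line are given side by side for these genes. From M2-3 to NHRI-HN2, 8 of 38 members were at least 1 unit higher, 21.1% against 6.52% of all genes, and none was at least 1 unit lower (5.69% of all genes were). The 8 were Cxcl5, Cxcl1, Ccl2, Cxcl10, Ccl7, Ccl20, Cxcl2 and Cxcl16, with differences from 11.69 down to 1.05 units. For Cxcl2 the difference falls to at least 0.09 units when M2-3 is set to its background level. From M1-2 to NHRI-HN1, 4 members were at least 1 unit higher (10.5% against 12.1% of all genes) and 7 at least 1 unit lower (18.4% against 12.2%). The median difference over the 38 members was 0.28 units in the M2-3 tumor, where all genes had -0.06, and 0.16 in the M1-2 tumor, where all genes had 0.00. With 1 array per line neither step has a test.

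Cxcl5, Cxcl1, Cxcl2 and Cxcl16 were at least 1 unit lower in NHRI-HN1 than in M1-2 and at least 1 unit higher in NHRI-HN2 than in M2-3. They make up 10.5% of the members, and 1.84% of all genes had that combination. No member had the opposite one, which 0.82% of all genes had. For Cxcl1 and Cxcl2 the NHRI-HN1 minus M1-2 difference is -0.83 and -0.52 units once NHRI-HN1 is set to its background level, so that the 1-unit limit is passed only by the measured values.

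**Figure D3:**
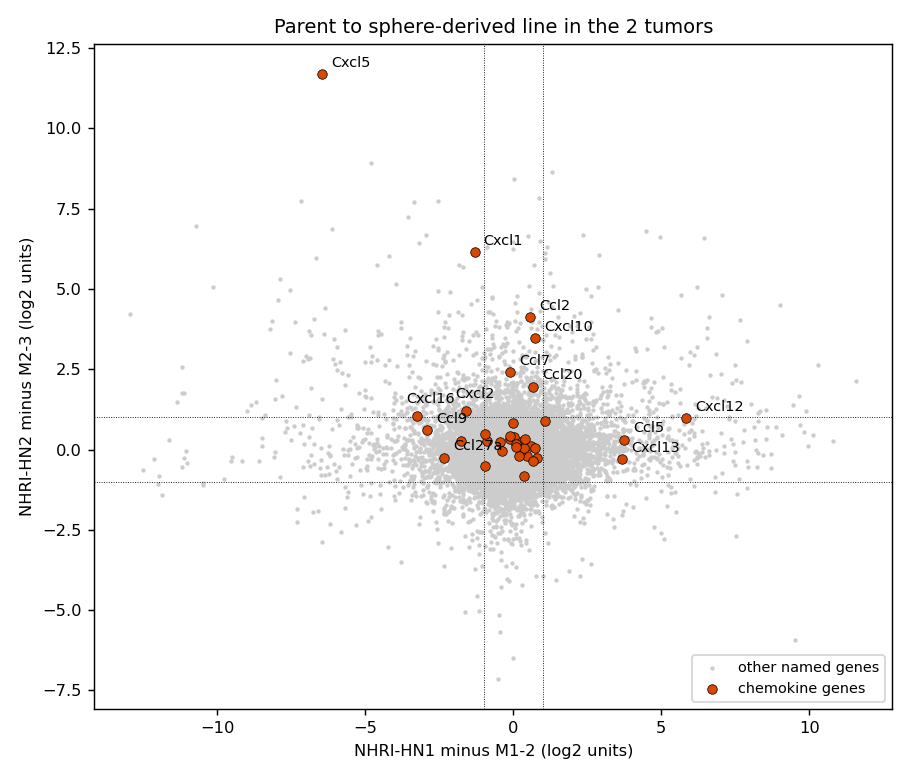
Difference in log2 units between NHRI-HN1 and M1-2 (x axis) and between NHRI-HN2 and M2-3 (y axis) for the 38 chemokine genes (orange) and the other named genes (grey), with dotted lines at 1 unit in either direction. Cxcl5 stands at -6.44 and 11.69, Cxcl12 at 5.85 on the x axis, and no chemokine gene lies under -1 on the y axis.

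NHRI-HN2 was also the line that most often stood apart from the 3 others. It lay at least 1 unit above all of them for 6 members (15.8% against 0.943% of all genes), namely Cxcl5, Cxcl1, Ccl2, Ccl7, Ccl20 and Cxcl16, and at least 1 unit below all of them for none (0.415%). NHRI-HN1 lay above for 3 members (7.89% against 5.89%), Cxcl12, Ccl5 and Cxcl13, and below for 2 (5.26% against 4.99%), Cxcl16 and Ccl27a. M1-2 lay above for 1 (2.63% against 4.34%), Ccl9, and none below (3.57%). M2-3 lay below for 1 (2.63% against 3.19%), Cxcl10, and above for none (3.06%).

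Cell type markers moved beside these differences. Of 7 fibroblast markers, 4 were at least 1 unit higher in NHRI-HN2 than in M2-3 and none lower, 1 was above background in M2-3 and 4 in NHRI-HN2, and the median went from 2.97 to 4.59. Col1a1, a chain of type I collagen, was at 4.07 in M2-3 and 10.50 in NHRI-HN2, and the growth factor receptor gene Pdgfrb at 2.65 and 8.97. All 8 epithelial markers were above background in both lines, with medians of 16.66 and 16.26. None of them was at least 1 unit higher in NHRI-HN2, and 1, Krt14, was at least 1 unit lower (-1.06 units). In the M1-2 tumor, 7 of 8 epithelial markers were above background in M1-2 and 1 in NHRI-HN1, with medians of 12.98 and 3.23. Of the 7 fibroblast markers there, 3 were at least 1 unit higher and 2 at least 1 unit lower in NHRI-HN1, with medians of 6.89 and 8.48: the collagen gene Col3a1 differed by 9.66 units, the proteoglycan gene Dcn by 4.45 and Col1a1 by -3.18. Of 6 muscle markers, 3 were above background in M1-2 and 5 in NHRI-HN1, with medians of 4.16 and 11.97. The part of these markers in the chemokine differences was not tested, and in such bulk RNA a change in the share of cells cannot be told apart from a change in RNA per cell.

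NHRI-HN1 had a different set of high chemokines, with Cxcl12 first. Cxcl12, the stromal factor SDF-1 that holds hematopoietic progenitors in the marrow through Cxcr4, was at 4.89 in M1-2 and 10.74 in NHRI-HN1, and 3.91 in M2-3 and 4.88 in NHRI-HN2. It stood 5.85 units above its parent, rank 106 of all genes, and the 3 other lines stayed within 1 unit of each other. Its signaling receptor Cxcr4 had the same shape, at 4.24 in M1-2 and 10.10 in NHRI-HN1, and 3.46 in M2-3 and 2.99 in NHRI-HN2. Cxcr4 in M2-3 and NHRI-HN2, and Cxcl12 in M2-3, lay under background, and the fit below took them as measured.

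In the limma fit of NHRI-HN1 against the mean of the 3 other lines, Cxcr4 was higher by 6.54 ± 0.72 units (SE, 1 line against 3, adjusted p = 0.0482 over 19505 genes). It was the only one of 19 measured chemokine receptors to be called at an adjusted p under 0.05. The call was lost without M2-3 (adjusted p = 0.217 in limma) and without NHRI-HN2 (0.45), and also without an intensity trend in the variance prior (0.0671), with the tumor as a block (0.0572) and without the dimmest genes (0.112); over all alternatives the adjusted p ran from 0.0195 to 0.45. Cxcl12 was higher by 6.18 ± 0.74 units with an adjusted p of 0.0588 in limma, just outside the limit, and from 0.0293 to 0.454 over the alternatives.

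Ackr3, the scavenging receptor that takes up Cxcl12 without G protein signaling, was not high in NHRI-HN1 alone. It was at 9.56 in M1-2 and 10.27 in NHRI-HN1, and 5.39 in M2-3 and 3.78 in NHRI-HN2, so that it was high in both M1-derived lines, including M1-2, where Cxcl12 and Cxcr4 were near background. For Ackr3 the M1-derived lines exceeded the M2-derived lines by 5.33 ± 0.72 units (adjusted p = 0.0795 in limma), short of the limit. The error there is the spread between each parent and its own sphere-derived line. NHRI-HN2 minus M2-3 was -1.61 units as measured.

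Ccl5 and Cxcl13 were the other members for which NHRI-HN1 lay at least 1 unit above all 3 other lines. Ccl5, or RANTES, which attracts T cells and macrophages, was at 4.43 in M1-2 and 8.18 in NHRI-HN1, and 3.70 in M2-3 and 4.01 in NHRI-HN2. Cxcl13, the B cell attractant of lymphoid follicles, was at 3.84, 7.51, 3.36 and 3.07. It was above background only in NHRI-HN1, which lay at least 3.38 units above M1-2 set to its background level. Ccl5 was under background in M2-3. The fit took all values as measured, so the SE of Cxcl13 is a spread among values under background. The difference from the 3 other lines was 4.13 ± 0.60 units for Ccl5 (adjusted p = 0.0864) and 4.09 ± 0.55 units for Cxcl13 (adjusted p = 0.0729) in limma, neither of which passed.

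The neighbours of Ccl5 on chromosome 11 differed among themselves over the lines. Ccl9, a mouse chemokine that acts through Ccr1 on myeloid cells, was at 6.81 in M1-2 and 3.91 in NHRI-HN1, and 2.66 in M2-3 and 3.27 in NHRI-HN2, above background only in M1-2. Ccl6, another rodent chemokine of that receptor group, was at 3.83, 4.62, 3.56 and 3.29, above background only in NHRI-HN1. Ccl3 and Ccl4, the macrophage inflammatory proteins, were at or under 3.91 in all lines.

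Of the ligands of Cxcr3, which attract activated T and NK cells, only Cxcl10 was above background. Cxcl10, or IP-10, the interferon-induced member best known in tumors, was at 6.33 in M1-2 and 7.06 in NHRI-HN1, and 4.03 in M2-3 and 7.50 in NHRI-HN2. M2-3 was the low line, and NHRI-HN2 lay 3.47 units above it as measured, rank 140 of all genes, and at least 3.38 units against the background level. Cxcl9, encoded nearby and induced by interferon-gamma, stayed between 3.07 and 3.50, and Cxcl11, which RefSeq lists as a transcribed pseudogene in this assembly, between 1.95 and 3.41.

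The 250 bases before Cxcl10 are shown because they held both motifs searched and those before Cxcl9 held neither. Capitals mark 2 kappaB matches, 159 and 104 bases before the start, and 1 match to TTTC, any 2 bases and TTTC, the core of the interferon-stimulated response element, 213 bases before it on the opposite strand. The sequence is from the minus strand of GRCm38.p6, and the motifs did not overlap. The interferon motif was held by 3 of the 26 members with an entry, 11.5% against 3.99% of all genes there: Cxcl10, Cxcl14 and Ccl19.
Cxcl10, chr5:92348890-92349139: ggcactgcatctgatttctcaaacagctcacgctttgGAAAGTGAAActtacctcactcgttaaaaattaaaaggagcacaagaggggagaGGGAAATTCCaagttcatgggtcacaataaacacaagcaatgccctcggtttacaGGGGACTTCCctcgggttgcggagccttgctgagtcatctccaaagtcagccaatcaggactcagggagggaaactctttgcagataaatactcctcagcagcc

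The chemokines that are made as membrane proteins with a mucin stalk and shed by proteases took opposite courses in NHRI-HN1. Cxcl16, the Cxcr6 ligand of T and NKT cells and also a scavenger receptor, was at 8.57 in M1-2 and 5.31 in NHRI-HN1, and 10.72 in M2-3 and 11.77 in NHRI-HN2, above background in every line and lowest in NHRI-HN1. NHRI-HN1 differed from the mean of the 3 other lines by -5.04 ± 1.35 units, with an adjusted p of 0.346 in limma. Cx3cl1, or fractalkine, the ligand of patrolling monocytes and NK cells, was at 5.71, 6.79, 6.42 and 7.31, lowest in M1-2 and higher in each sphere-derived line than in its parent by 1.08 and 0.89 units.

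Of their sheddases, Adam10 lay between 11.87 and 13.01 in all lines, and Adam17 was at 11.53 in M1-2 and 12.62 in NHRI-HN1, and 10.85 in M2-3 and 11.43 in NHRI-HN2 (Adam10 was named after its values were seen). None of the 7 measured proteases that cut or trim chemokines was called in either limma fit. The one of widest range was Mmp2, a gelatinase that truncates Cxcl12 and Ccl7, at 9.85 in M1-2 and 13.24 in NHRI-HN1, and 4.72 in M2-3 and 4.66 in NHRI-HN2. Mmp12, the macrophage elastase, was above background only in M1-2, at 5.21, and Mmp9 in no line.

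Chemokines of skin and mucosa were above background in more than 1 line. Ccl27a, the keratinocyte chemokine that attracts skin-homing T cells through Ccr10, was at 8.14 in M1-2 and 5.82 in NHRI-HN1, and 8.35 in M2-3 and 8.10 in NHRI-HN2. The 3 other lines lay within 0.25 units of each other, and NHRI-HN1, the line with 1 of 8 epithelial markers above background, differed from their mean by -2.38 ± 0.64 units (adjusted p = 0.353 in limma). Ccl28, the mucosal ligand of the same receptor, differed less, at 5.18, 5.56, 5.17 and 4.35, and was lowest in NHRI-HN2.

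Ccl20, the Ccr6 ligand for immature dendritic and Th17 cells, was at 3.44 in M1-2 and 4.10 in NHRI-HN1, and 3.60 in M2-3 and 5.56 in NHRI-HN2. It was above background only in NHRI-HN2, at least 1.44 units above M2-3. Ccl25, the thymus and gut chemokine, was at 5.41, 5.30, 6.49 and 6.83, with both M2-derived lines above both M1-derived ones by more than 1 unit.

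The remaining members above background were near it. Ccl17, a ligand of Ccr4 on Th2 and regulatory T cells, was at 4.50 in M1-2 and 3.56 in NHRI-HN1, and 4.17 in M2-3 and 4.67 in NHRI-HN2. Ccl21a, the Ccr7 ligand of lymphoid stroma, was at 4.48, 4.7, 3.71 and 3.96. Cxcl14, an epithelial chemokine whose receptor is less certain, was at 3.50, 4.25, 3.42 and 3.47, and Cxcl17, a mucosal one, at 3.57, 3.59, 3.67 and 4.07.

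None of these 4 genes spanned more than 1.11 units. The other 15 members lay at or under background in every line, between 1.95 and 4.03: Ccl1, Ccl3, Ccl4, Ccl8, Ccl12, Ccl19, Ccl21b, Ccl21c, Ccl22, Ccl24, Ccl26, Cxcl9, Cxcl11, Cxcl15 and Xcl1. Thus ligands of Ccr4 other than Ccl17, of Ccr7 other than Ccl21a, and the Xcr1 ligand of cross-presenting dendritic cells were not distinguishable from background with these probes. Ccl21b and Ccl21c are near-identical genes, and a probe set of Ccl21b carried the same 4 values as that of Ccl21c, so these genes cannot be told apart.

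Over all members, no chemokine gene was called in the limma fit of NHRI-HN1 against the 3 other lines at an adjusted p under 0.05, where 0.508% of all genes were called higher and 0.113% lower. At an unadjusted p under 0.05 there were 6 (4 higher, 2 lower), 15.8% of the members against 9.3% of all genes, and the median difference was 0.04 units for the members and -0.01 for all genes. The 6 were Cxcl12, Cxcl13, Ccl5 and Ccl8 (under background in all lines) above and Cxcl16 and Ccl27a below. This contrast sets apart the line that serves as a tumor graft in mice of its own strain. The error is the spread between M1-2, M2-3 and NHRI-HN2, with NHRI-HN2 derived from M2-3. Leaving out M1-2 left only the spread between M2-3 and its derivative NHRI-HN2 as the error. The differences of NHRI-HN1 were then, as measured, 6.345 units for Cxcl12, 4.295 for Cxcl13, 4.325 for Ccl5 and -5.935 for Cxcl16.

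In the fit of M1-2 and NHRI-HN1 against M2-3 and NHRI-HN2, grouped by tumor of origin, again no member was called. Of all genes, 0.123% were called higher and 0.446% lower in the M1-derived lines. The error is the spread between each parent and its own sphere-derived line. These are related, so the SE and p do not extend to tumors in general. At an unadjusted p under 0.05 there were 5 members (1 higher, 4 lower), 13.2% against 16.8% of all genes. Lower in the M1-derived lines were Ccl2 (difference -5.42 ± 1.39 units, adjusted p = 0.195 in limma), Cxcl16, Ccl7 and Ccl25, and higher was Ccl24, which lay under background. Without M1-2 this fit is the same as the one above without M1-2, because only NHRI-HN1 is then left of its tumor. Between the parents, M1-2 was at least 1 unit above M2-3 for 6 members (15.8% against 13.7% of all genes), Cxcl5, Ccl9, Cxcl10, Cxcl2, Cxcl3 and Ccl11, and at least 1 unit below for 4 (10.5% against 17%), Ccl2, Cxcl16, Ccl7 and Ccl25.

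Most receptors for these ligands lay at background, and 2 to 4 of the 19 measured exceeded it in any 1 line. Cxcr2, the receptor of Cxcl5 and Cxcl1, lay between 3.32 and 3.81, and Ccr2, the receptor of Ccl2 and Ccl7, between 2.83 and 2.97. The receptor of Cxcl16, Cxcr6, was at 4.78 in M1-2 and 2.58 in NHRI-HN1, and 3.32 in M2-3 and 4.79 in NHRI-HN2. These 3 receptors and Ccr7, above background in all lines at 5.59 to 6.07, were named after their values were seen.

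The remaining atypical receptors were dim: Ackr2, which degrades inflammatory CC chemokines, was highest at 4.29 in NHRI-HN1, and Ackr1 and Ackr4 were above background in no line. Of the ligands named outside the rule, Mif, a cytokine that also binds Cxcr2 and Cxcr4, was at 12.21 in M1-2 and 12.24 in NHRI-HN1, and 14.08 in M2-3 and 13.80 in NHRI-HN2, and Cklf, a chemokine-like factor, at 7.61, 7.32, 8.99 and 7.67. For Mif the M1-derived lines minus the M2-derived lines gave -1.72 ± 0.38 units, which was not called (adjusted p = 0.168 in limma).

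**Figure D4:**
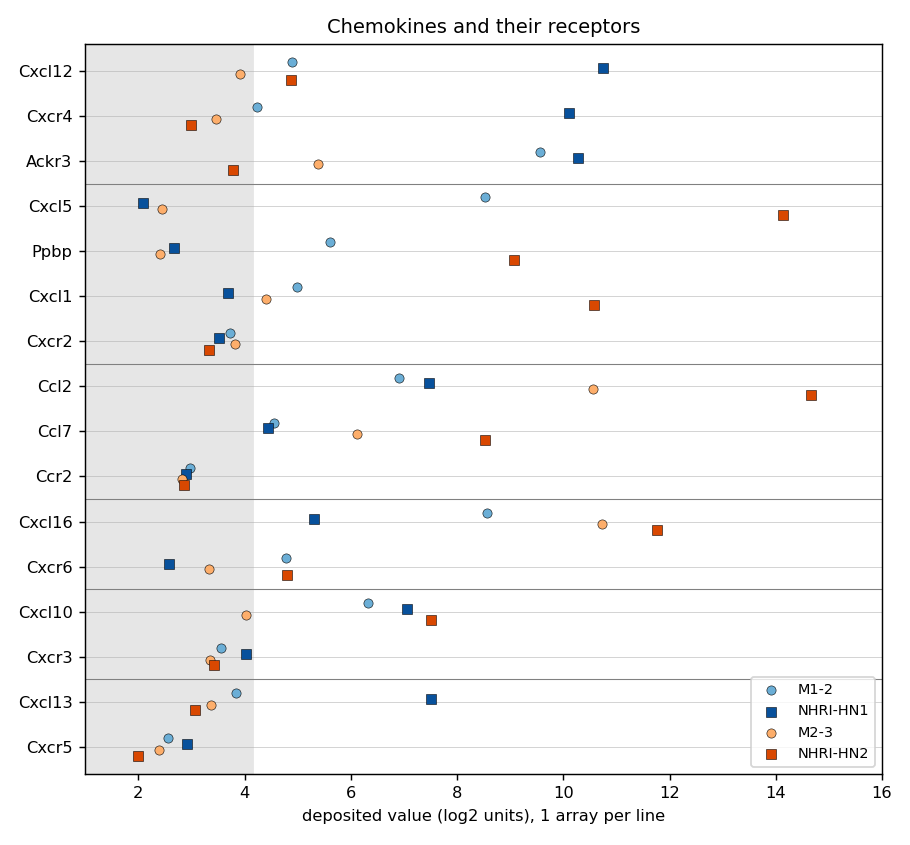
Deposited value in log2 units (x axis) of selected chemokines and the receptors that bind them (rows, grouped by ligand and receptor), with 1 point for each line. Cxcl12 and Cxcr4 have their high points together in NHRI-HN1 (10.74 and 10.10), Ackr3 is high in both M1-derived lines, and Cxcr2, Ccr2, Cxcr3 and Cxcr5 lie inside the grey band, which ends at the highest background level, 4.15.

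Of 22 measured regulators of chemokine transcription (NF-kappaB and interferon factors, their inhibitors, and the cytokines and receptors upstream), 13 were at least 1 unit higher in NHRI-HN2 than in M2-3 and none lower (all genes 6.52% and 5.69%), while 4 were higher and 8 lower in NHRI-HN1 than in M1-2 (all genes 12.1% and 12.2%). The genes called in NHRI-HN1 against the 3 other lines were Irf7 and Rel. Irf7 was under background in M1-2 and M2-3, and the fit took these values as measured. Against M1-2 set to its background level, it was at least 9.08 units higher in NHRI-HN1. Irf7, the interferon-induced factor that amplifies type I interferon, was at 3.77 in M1-2 and 13.21 in NHRI-HN1, and 2.93 in M2-3 and 4.32 in NHRI-HN2, 9.54 units above the others (adjusted p = 0.0352 in limma). Rel, the NF-kappaB subunit c-Rel, was at 12.89, 6.67, 13.04 and 12.28, a difference of -6.07 units (adjusted p = 0.0451). Both calls were lost under the same settings as that of Cxcr4, with adjusted p up to 0.438 over the alternatives.

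Among regulators named after their values were seen, 3 NF-kappaB targets that restrain the pathway followed the order of Ccl2 in part. Tnfaip3, or A20, was at 6.71 in M1-2 and 4.34 in NHRI-HN1, and 13 in M2-3 and 14.18 in NHRI-HN2, and Nfkbia, the inhibitor IkappaBalpha, at 11.73, 8.60, 14.32 and 15.94. Zfp36, which shortens the life of chemokine mRNAs, was at 7.02, 5.57, 9.72 and 11.74. All 3 were lowest in NHRI-HN1 and highest in NHRI-HN2. Not every regulator of the list had that order: Nfkb2, an NF-kappaB subunit gene, was at 8.65, 9.20, 7.67 and 9.51, lowest in M2-3. The cytokine Il6 was above background only in NHRI-HN2, at 6.39, and Tnf in M1-2 and NHRI-HN2, at 6.23 and 6.45, the same lines in which Cxcl5 and Ppbp were above background. The cytokines Il1a and Il1b did not share these lines. Il1a was above background in M2-3 and NHRI-HN2, at 4.23 and 6.79, and Il1b in all but NHRI-HN1, at 4.76, 3.85, 4.30 and 4.40. A link to the chemokines was not tested. Il1r1, the interleukin-1 receptor, was instead highest in NHRI-HN1, at 5.23, 14.25, 3.25 and 7.74.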

How the data were processed

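The authors processed 4 Affymetrix Mouse Clariom S arrays, 1 per line, with Partek (version 7 per the submitters' processing notes) and deposited 1 value for each of 22206 probe sets. The deposited values, read here as log2, lie between 1.48 and 19.77, with an upper end beyond a plain log2 of usual scanner signals. For log base, background correction and normalization the sources used here give nothing. Array medians lay between 4.53 and 4.75. The platform annotation named 19572 probe sets with 1 symbol (none with several, 2634 unnamed); probe sets of a gene were averaged, giving 19505 genes. All 38 members were found in RefSeq by gene ID. The build of the probes is not given, so only RefSeq neighbours and promoters (GRCm38.p6) were used.

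Contrasts were fitted over all genes in limma 3.58.1 (R 4.3.3; lmFit, eBayes with an intensity trend), with Benjamini-Hochberg adjustment and a call at 0.05. The spread between lines is the error, at 2 residual degrees of freedom, and says nothing of repeat cultures. The scripts were tested on simulated data. The number of arrays limits the precision. Named genes were all members, those above background with all 4 values. From the lists of receptors, atypical receptors, other chemokines, proteases and regulators, genes called in a fit were named, or up to 4 of widest range. Members and lists were chosen with earlier results of these data known. Alternatives were other normalizations, no trend, no dim genes, the brightest probe set, the tumor as a block (also for sphere-derived lines against parents), each line left out, 2 units in place of 1, and other background levels.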

Additional observations from a re-analysis of the deposited data

Results flagged for a closer look

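For 4 chemokine genes the step from parent to sphere-derived line had opposite signs in the tumors, by at least 1 unit in each as measured. The step in the M2-3 tumor minus that in the M1-2 tumor was 18.13 units for Cxcl5, 7.46 for Cxcl1, 4.31 for Cxcl16 and 2.81 for Cxcl2 as measured. With values under background set to that level it was at least 14.38 for Cxcl5, 6.99 for Cxcl1 and 0.61 for Cxcl2, so that Cxcl1 and Cxcl2 no longer pass 1 unit in both tumors, while Cxcl16 kept 4.31. The difference was not tested, because each step rests on 1 array per line. Cxcl16 alone of these was above background in all 4 lines. No group had enough samples for a search for samples far from the others.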

How the results depend on the processing

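Over 96 refits of chemokine genes that had an unadjusted p under 0.05 (each with 1 choice changed), no difference changed sign; 89 stayed on the same side of the threshold and 7 passed it. These genes were chosen by their p in the same data. Leaving out the trend, the dim genes or all but the brightest probe set did not alter their differences, because each has 1 probe set. Unchanged signs were thus partly fixed in advance. Quantile normalization turned the sign of none of 29 pair differences. Against the 3 other lines the called members were 1 instead of 0 with arrays centred on their medians and 1 with quantile normalization (Cxcl12 in both), and 0 to 4 when a line was left out; the 4 came without M1-2. Calls over all genes went from 121 to 0 without an intensity trend (1947 at an unadjusted p under 0.05 in limma), to 0 with the tumor as a block (2708), to 0 without the dimmest genes (974), and from 0 (without M2-3 or NHRI-HN2) to 707 (without M1-2) when a line was left out. Between tumors the called members were 0 to 4 when a line was left out, and calls over all genes went from 111 to between 0 and 707, with 184 without NHRI-HN1. The cause was not tested. At 2 units in place of 1, members lower in NHRI-HN1 than M1-2 fell from 7 to 4 (both directions 11 to 7), those higher in NHRI-HN2 than M2-3 from 8 to 5 (both directions 5), and those higher and lower in M1-2 than M2-3 from 6 to 3 and from 4 to 2 (both directions 10 to 5). With the median of all genes as the background level, 11 members instead of 18 lay above it in M1-2, and 11 instead of 18 in NHRI-HN2. The filter on dim genes left out members under the median, so that those had no value there. A paired fit of both sphere-derived lines against their parents, with the tumor of origin as a replicate block and 1 residual degree of freedom, was added after seeing the data: limma called 0 members and 0 of all genes, and at an unadjusted p under 0.05 there were 1 member (Cxcl11, under background in all lines) and 697 genes. Values near the background level limit what differences between dim members can show.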
